A study of Mus musculus with 6 samples.

Results

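Fibronectin and the matricellular proteins were followed through 10 genes chosen by name: Fn1, Vtn, Tnc, Postn, Sparc, Thbs1, Thbs2, Lox, Fbn1 and Sdc1. Of these, 9 were measured by a probe set with 1 gene symbol, out of 22180 such genes on the array, and Fbn1, which encodes fibrillin-1, was not analysed here. Sorted bone marrow cells of mice with acute myeloid leukemia (AML, 3 arrays) were set against those of mice with chronic myeloid leukemia (CML, 3 arrays). All 6 samples carried the genotype Col2.3 GFP, a reporter whose Col1a1 promoter fragment makes bone-forming cells express green fluorescent protein. The cells are osteoblastic by their cell type label and stromal by their titles. The groups follow the titles, since CML is the source name of every sample. How the leukemias were induced, and the strain and age of the mice, are not given in the sources used here, and no label states that each array had a mouse of its own. The p-values below therefore reflect the scatter among these 6 arrays, part of which could be technical.

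Fibronectin is a large adhesive glycoprotein that cells stretch into fibrils through integrin alpha5 beta1, and the fibrils then serve as a scaffold for collagen and other matrix proteins. Matricellular proteins are secreted into the matrix without being its main building blocks. They bind receptors, growth factors and collagen, and several are abundant in bone and in remodelling or scarring tissue. In marrow, fibronectin is also known from monocytes and macrophages, and thrombospondin-1 from platelet granules, so neither gene is a marker of the bone lineage alone.

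Values are log2 intensities, changes are AML minus CML, and errors beside a change are the moderated standard errors of limma. A change was called at a Benjamini-Hochberg adjusted p under 0.05 over all 22180 genes, which 1.91% of all genes reached. As a guide to dim signals, 1394 genes of olfactory and vomeronasal receptors, which marrow is not known to use, had a 95th percentile between 4.34 and 4.55 on the AML arrays and between 4.70 and 5.10 on the CML arrays. Probe sets differ in how well they hybridise, so this level separates bright from dim signals and does not rank one gene against another. Of 10 measured osteoblast markers, 6 were above that level on all 6 arrays (Col1a1, Col1a2, Sp7, Ibsp, Alpl and Mepe), Bglap was above it on 3, and Dmp1, Phex and Col22a1 were above it on 2 each. All 12 pan-haematopoietic markers were above it on every array as well, so RNA of blood cells was present in both groups. The amount was not alike. Each of the 12 had a higher mean in AML, and the groups did not overlap for 7. Their summed intensity ran from 4162 to 6985 in AML and from 946 to 3590 in CML. The part of blood cell RNA in the changes below was not tested.

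None of the 9 genes passed the adjusted threshold, which 1.83% of all genes passed as higher and 0.0812% as lower in AML. Fn1 was the member with the largest difference and was higher in AML by value, with smaller positive differences for Sdc1, Thbs1 and Tnc, whereas Sparc, Lox, Postn, Vtn and Thbs2 were lower by value. At an unadjusted p under 0.05, 1 of 9 was higher in AML (Fn1) and 1 lower (Vtn), beside 12.6% and 8.99% of all genes. By value 4 were higher and 5 lower, beside 61.7% of all genes lower, and the median change was -0.34, against -0.11 over all genes. The groups did not overlap for 4 of the 9, with Fn1 and Sdc1 higher on every AML array and Vtn and Thbs2 lower. Among all genes, 31.3% were apart, 13.3% with AML higher and 17.9% with AML lower.

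**Figure D1:**
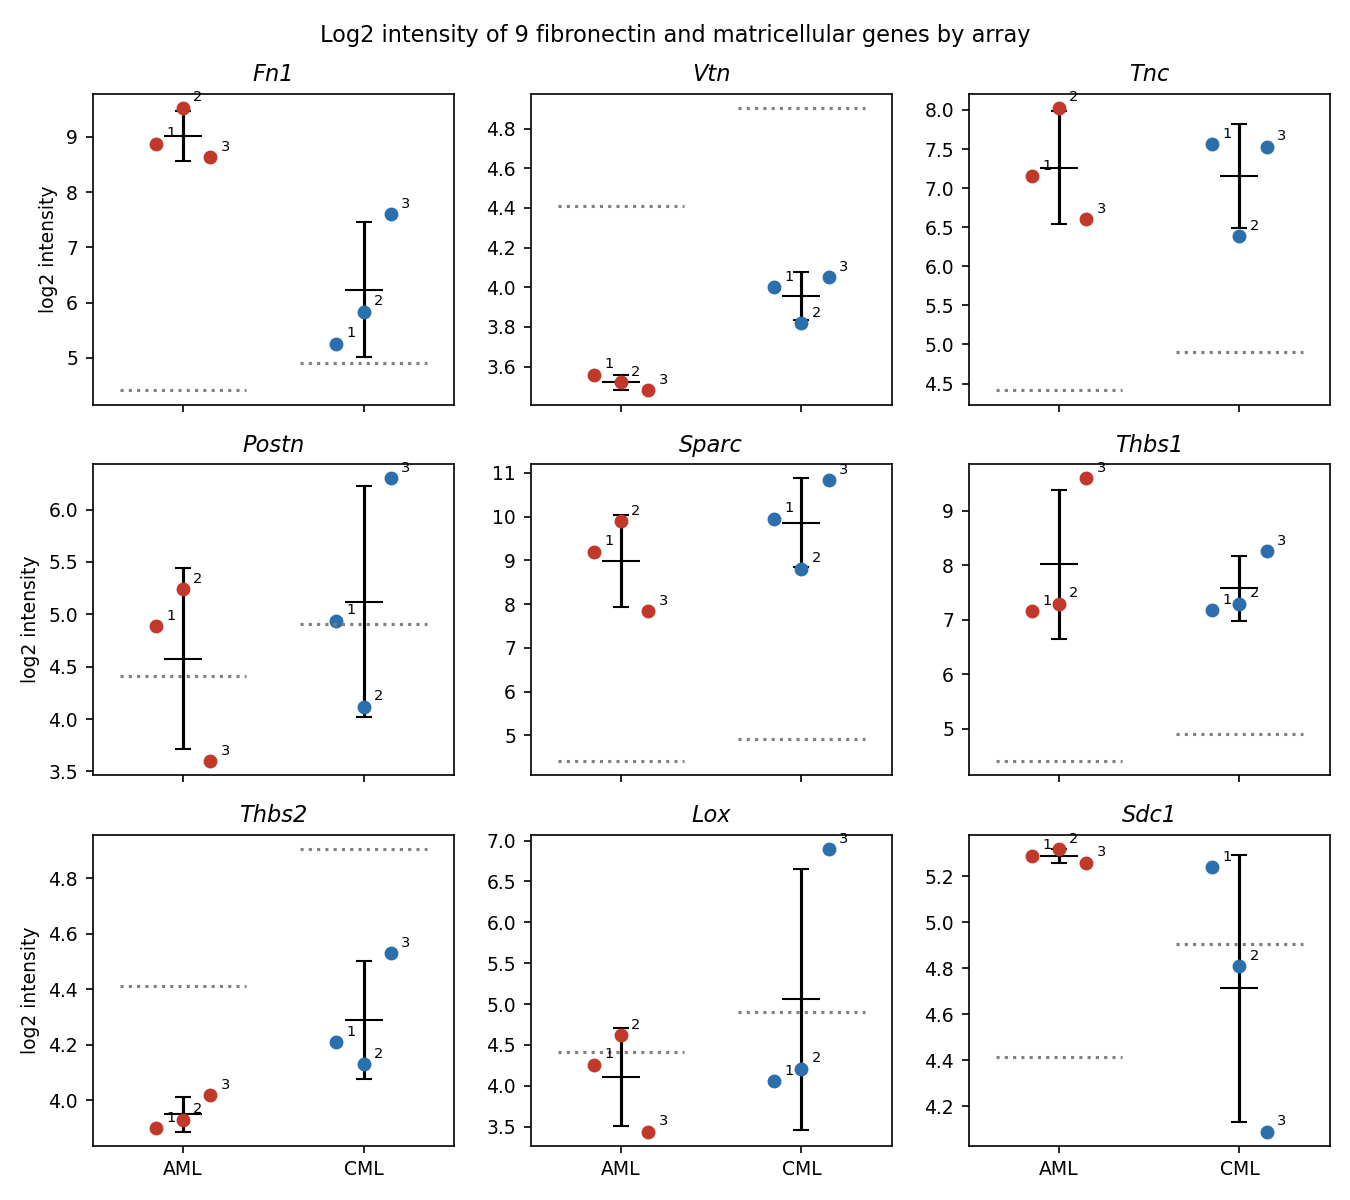
Log2 intensity (y axis) of each of the 9 genes on the 3 AML arrays (red) and the 3 CML arrays (blue), with replicate numbers beside the points. Horizontal bars are group means, error bars are SDs (n = 3 each), and the dotted line is the mean over a group's arrays of the 95th percentile of olfactory and vomeronasal receptor genes. Fn1 is above 8.6 on every AML array, and Vtn and Thbs2 lie under the dotted line on all 6 arrays.

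Fn1 (probe set 17224071, chromosome 1), which encodes fibronectin, stood at 8.88, 9.53 and 8.64 on AML 1, 2 and 3, against 5.26, 5.84 and 7.60 on CML 1, 2 and 3. The lowest AML array lay 1.04 above the highest CML array, and CML 3 stood apart from the other CML arrays. AML averaged 9.02 ± 0.46 and CML 6.24 ± 1.22 (SD over 3 arrays each). This is a 6.87-fold difference, a log2 change of 2.78 ± 0.60 with a 95% interval from 1.36 to 4.21 (limma adjusted p = 0.0742). In bulk RNA, fewer cells of a type and less RNA per cell cannot be told apart. Leaving out 1 array at a time gave changes from 2.29 to 3.46, and Fn1 passed in 0 of these 6 fits (limma adjusted p from 0.0690 to 0.231). It passed after median centring of the arrays (limma adjusted p = 0.0464) and when only the brighter 50% of genes were fitted (limma adjusted p = 0.0410). It did not pass after quantile normalization, after cyclic loess or with log2(intensity + 16) (limma adjusted p = 0.138, 0.162 and 0.106).

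The arrays that were high in Fn1 were also high in myeloid genes. By the root mean square difference between log2 profiles over the 6 arrays, each centred on its own mean, the genes nearest to Fn1 were Cebpe, Rassf4, Prtn3, Gca and Nceh1, at 0.42 to 0.48. Cebpe encodes a transcription factor of granulocyte maturation, Prtn3 the granule protease proteinase 3 and Gca the neutrophil calcium-binding protein grancalcin. Prtn3 stood at 10.32, 10.66 and 9.58 on AML 1, 2 and 3, against 6.60, 6.89 and 7.65 on CML 1, 2 and 3. Its AML arrays, too, were all above its CML arrays and CML 3 was the highest of its group. This likeness follows from the choice of Prtn3 by its profile and adds no support. The nearest of the other 8 members to Fn1 was Tnc, at 1.52, and the farthest was Sparc, at 1.95. These distances describe 6 arrays and carry no test.

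Marker lists of myeloid cells had higher sums in AML, as Fn1 did. Of 12 genes of myeloid progenitors and primary granules, 9 rose and all 12 were higher in AML by value, and their summed intensity ran from 5834 to 12746 in AML and from 855 to 1561 in CML. The 9 calls became 7 after quantile normalization, 2 after cyclic loess, and 0 with the replicate block or without AML 1, AML 2 or CML 3. Within CML, progenitor and pan-haematopoietic sums had another order than Fn1. CML 1, the lowest array for Fn1, had the highest of both (1561 and 3590). Monocyte and macrophage sums were 2030, 1140.2 and 2495 on CML 1, 2 and 3, and granulocyte sums 14649, 7459 and 16467. Both sums were highest on CML 3, as Fn1 was, and lowest on CML 2. Sums follow their brightest genes, and Lyz2, the brightest monocyte gene, stood at 10.62, 9.51 and 10.91 on CML 1, 2 and 3. Single monocyte genes had other orders. Cd68 (4.64, 5.88 and 5.83) and Ly86 (3.89, 4.41 and 4.35) were highest on CML 2. Mpeg1 (5.64, 4.01 and 5.19) was highest on CML 1, and Ccr2 (5.72, 5.42 and 5.94) on CML 3.

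Of 12 monocyte and macrophage genes, Ly86, Cd68, Mpeg1 and Ccr2 rose and none fell, with sums from 2816 to 4664 in AML and from 1140.2 to 2495 in CML. Ly86 passed under all 3 other scalings and in 3 of 6 fits with 1 array left out. Cd68, Mpeg1 and Ccr2 each passed under 1 of the 3 scalings, and in 1, 2 and 1 of the 6 fits. By value 9 of the 12 were higher in AML, among them Csf1r and Adgre1, at 1.77 and 1.84 without passing (limma adjusted p = 0.0659 and 0.233). The 3 lower by value were Mrc1, C1qa and C1qb, at -0.35, -0.36 and -0.75, and they did not pass (limma adjusted p = 0.206, 0.225 and 0.243). Csf1r, Adgre1 and these 3 were picked after their values were seen.

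Granulocyte sums ran from 17048 to 21846 in AML and from 7459 to 16467 in CML, with Chil3 the single call of 12. By value 9 of the 12 were higher in AML, with a median change of 0.63. The 3 lower by value were Retnlg, Cxcr2 and Mmp8, also picked after their values were seen, at -1.66, -0.68 and -0.54 (limma adjusted p = 0.152, 0.568 and 0.475). Retnlg was lower on every AML array than on any CML array, and without CML 2 Retnlg and Mmp8 passed as lower (limma adjusted p = 0.0376 and 0.0488). On all 6 arrays, 8 of 12 progenitor, 6 of 12 monocyte and 12 of 12 granulocyte genes were above the receptor level, and Mrc1 was under it on all 6. The deposited table holds no value at 0, so this level takes the place of a zero. The part of these cells in the Fn1 difference was not tested.

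Vitronectin, a plasma glycoprotein made mainly by the liver that binds alpha v integrins, was dim here. Vtn (probe set 17253656, chromosome 11) stood at 3.56, 3.52 and 3.48 on AML 1, 2 and 3, against 3.999, 3.82 and 4.05 on CML 1, 2 and 3. Each of these values was under the receptor level of its array. The change was -0.44 ± 0.13 (limma adjusted p = 0.147), and other settings on all 6 arrays gave -0.44 to -0.20. The olfactory and vomeronasal receptor genes themselves had a median change of -0.16, with 83.6% of them below 0, so lower values in AML were common among dim genes.

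**Figure D2:**
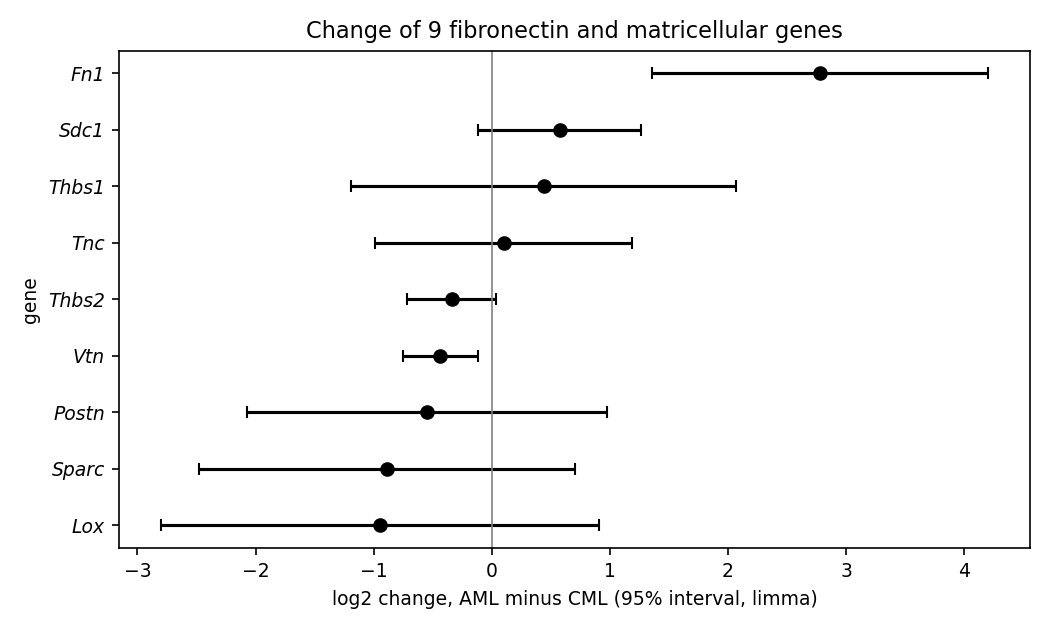
Log2 change, AML minus CML (x axis), of each of the 9 genes (rows), as points with the 95% interval of the limma fit of 3 AML and 3 CML arrays. The intervals of Fn1 and Vtn exclude 0, unadjusted for the other genes, and those of Sparc, Lox, Postn and Thbs1 are more than 3 log2 units wide.

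Over the arrays, Sparc had a profile close to those of the bone genes Col1a2 and Ibsp, and Postn one close to that of Sparc. Neither Sparc nor Postn differed between the groups beyond the spread of the arrays. Sparc encodes osteonectin, a collagen- and calcium-binding protein abundant in bone, and Postn encodes periostin, a matricellular protein of the periosteum and other collagen-rich tissues. Their promoters are shown because these genes had close profiles. The RefSeq promoter table (GRCm38.p6) held entries for 6 of the 9 genes. The 250 bases before an annotated start are printed on the gene's strand, for Sparc at chr11:55420081-55420330 (minus strand) and for the second of the 2 entries of Postn at chr3:54360857-54361106 (plus strand).
Sparc: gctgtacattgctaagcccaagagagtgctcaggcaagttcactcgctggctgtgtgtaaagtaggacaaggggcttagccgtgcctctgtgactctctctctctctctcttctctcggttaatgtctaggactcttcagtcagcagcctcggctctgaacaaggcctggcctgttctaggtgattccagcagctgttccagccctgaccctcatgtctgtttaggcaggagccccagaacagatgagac
Postn: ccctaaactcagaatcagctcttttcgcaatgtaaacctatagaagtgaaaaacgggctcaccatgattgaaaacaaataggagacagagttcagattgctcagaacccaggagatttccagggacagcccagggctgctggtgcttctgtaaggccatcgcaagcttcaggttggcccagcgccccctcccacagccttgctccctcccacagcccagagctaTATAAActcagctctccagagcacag
Capitals mark TATAAA, which lies from 26 to 21 bases before the start of this Postn entry. The motif occurred on either strand in 12.4% of 32851 promoters of the same length. TGACGTCA, TGANTCA and CCAAT, which occur in 1.55%, 6.75% and 33.85% of promoters, were searched on both strands as well. None of the 4 motifs matched in the Sparc entry or in the first Postn entry, which is not printed. Searches of this kind describe letters in a window and do not show binding.

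Sparc (probe set 17262990, chromosome 11) was bright on all arrays, at 9.20, 9.90 and 7.83 on AML 1, 2 and 3, against 9.95, 8.81 and 10.83 on CML 1, 2 and 3. The groups overlapped, CML 3 was the highest array and AML 3 the lowest. The change was -0.89 ± 0.67, with a 95% interval from -2.48 to 0.70 (limma adjusted p = 0.428). With 1 array left out it ran from -1.42 without CML 2 and -1.35 without AML 2 to -0.41 without CML 3 and -0.32 without AML 3.

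Postn (probe set 17397575, chromosome 3) had the same order of high and low arrays at the ends. It stood at 4.89, 5.24 and 3.60 on AML 1, 2 and 3, against 4.94, 4.12 and 6.30 on CML 1, 2 and 3, above the receptor level on 4 of 6 arrays. CML 3 was again the highest and AML 3 the lowest. The change was -0.55 ± 0.64 (limma adjusted p = 0.597), it turned to 0.04 without CML 3, and it was -0.06 without AML 3.

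Among all genes the nearest to Sparc by profile was Col1a2, a chain of type I collagen, at a root mean square difference of 0.19. Ifnl3 came next, at 0.24, and then Postn, Ibsp and Mxra8, each at 0.26. Ibsp encodes bone sialoprotein. The osteoblast markers showed the same arrays at the ends: all 10 measured were highest on CML 3, and 8 were lowest on AML 3. Their summed intensity was 2426, 4713 and 1307 on AML 1, 2 and 3, against 5468, 2689 and 12452 on CML 1, 2 and 3. All 10 were lower in AML by value and 0 passed in limma, with Mepe alone at an unadjusted p under 0.05. Whether the amount of bone-lineage RNA on each array accounts for the Sparc and Postn values was not tested.

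**Figure D3:**
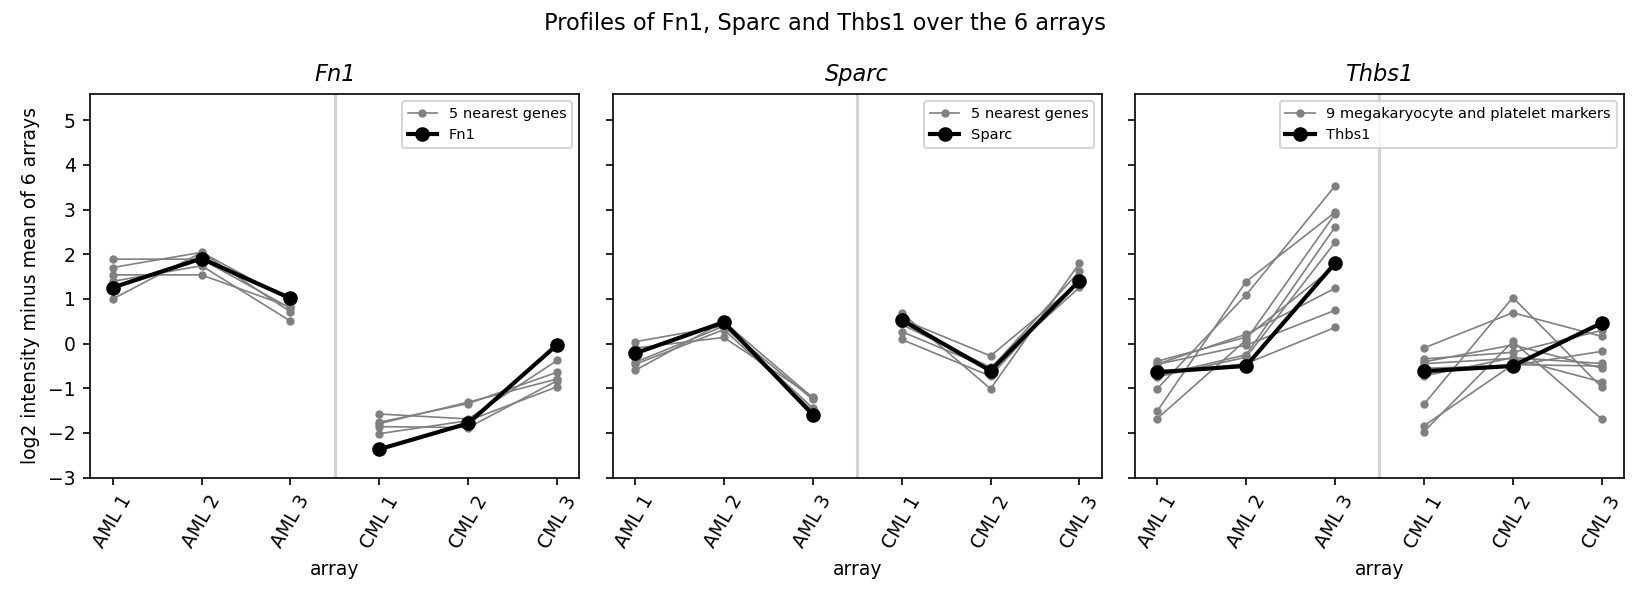
Log2 intensity minus the mean of the 6 arrays (y axis) on each array (x axis) for Fn1 and Sparc with their 5 nearest genes, and for Thbs1 with 9 megakaryocyte and platelet markers. Lines join arrays of a group for the eye only, since replicates have no order. Fn1 and its neighbours are high on the AML arrays, Sparc and its neighbours are high on CML 3 and low on AML 3, and Thbs1 and 8 of the 9 markers are highest on AML 3.

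Lox encodes lysyl oxidase, the enzyme that starts the crosslinking of collagen and elastin. Lox (probe set 17354367, chromosome 18) stood at 4.26, 4.62 and 3.44 on AML 1, 2 and 3, against 4.06, 4.21 and 6.90 on CML 1, 2 and 3. CML 3 alone was clearly bright, while the other CML arrays lay among the AML arrays. The change was -0.95 ± 0.78 (limma adjusted p = 0.463), and it was -0.03 without CML 3.

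Tnc encodes tenascin-C, a hexameric protein of developing and remodelling matrix that modulates adhesion to fibronectin. Tnc (probe set 17426365, chromosome 4) was bright on all arrays, at 7.15, 8.03 and 6.60 on AML 1, 2 and 3, against 7.56, 6.39 and 7.53 on CML 1, 2 and 3. The groups overlapped throughout. The change was 0.10 ± 0.46, with a 95% interval from -0.99 to 1.19 (limma adjusted p = 0.900), and its sign turned under 2 other scalings, to -0.17 after quantile normalization and -0.23 after cyclic loess.

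The thrombospondins bind CD47 and CD36 on cells, and thrombospondin-1 can activate latent TGF-beta. Thbs1 (probe set 17374488, chromosome 2) stood at 7.16, 7.30 and 9.60 on AML 1, 2 and 3, against 7.18, 7.30 and 8.26 on CML 1, 2 and 3. AML 3 was the highest array and CML 3 the next, while the other 4 lay between 7.16 and 7.30. The change was 0.44 ± 0.68 (limma adjusted p = 0.694), and it turned to -0.35 without AML 3.

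Platelet markers moved with Thbs1 on AML 3. Of 9 measured megakaryocyte and platelet genes, 8 were highest on AML 3, where 14.7% of all genes were highest, and 0 passed between the groups in limma, with 0 at an unadjusted p under 0.05 as well. Their summed intensity was 282, 863 and 3607.5 on AML 1, 2 and 3, against 283, 559 and 369 on CML 1, 2 and 3. Ppbp, a platelet chemokine, stood at 9.91 on AML 3, against 4.41 to 7.47 on the other arrays. On all 6 arrays 4 of the 9 markers were above the receptor level, and the part of platelets in the Thbs1 value of AML 3 was not tested. On CML 3, the second highest array for Thbs1, the platelet sum lay between those of CML 1 and CML 2.

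Thbs2 (probe set 17341080, chromosome 17), which encodes thrombospondin-2, an inhibitor of vessel growth, was dim on all 6 arrays. It stood at 3.90, 3.93 and 4.02 on AML 1, 2 and 3, against 4.21, 4.13 and 4.53 on CML 1, 2 and 3, each under the receptor level of its array. The change was -0.34 ± 0.16 (limma adjusted p = 0.260). Although the groups did not overlap, the gap between them was 0.11.

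Sdc1 encodes syndecan-1, a heparan sulphate proteoglycan of epithelia and plasma cells known as CD138, and its 2 probe sets disagreed. The brighter one (probe set 17547680, chromosome 12) stood at 5.29, 5.32 and 5.26 on AML 1, 2 and 3, against 5.24, 4.81 and 4.09 on CML 1, 2 and 3. AML arrays were all above CML arrays, but AML 3 and CML 1 differed by only 0.02. The change was 0.57 ± 0.29 (limma adjusted p = 0.287). The other probe set (17273948) gave -0.30, so no direction is drawn for Sdc1. Genes of plasma cells and the B lineage had their highest sum on CML 1, at 1712 against 290.1 to 532 on the other 5 arrays. Of 11 measured, 7 were highest there, among them Cd79a and Cd79b (8.84 and 9.07) and Jchain and Mzb1 (6.51 and 7.89). Xbp1, Prdm1, Tnfrsf17 and Derl3 were highest on other arrays.

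The spread within a group differed among the members. The median SD over the 9 members was 0.61 in AML and 0.67 in CML, against 0.19 and 0.26 over all genes. On all 6 arrays, 7408 of 22180 genes were above the receptor level, beside 4 of the 9 members. SDs were not compared at like brightness. Sdc1, Vtn and Thbs2 were under the median of all genes in AML, at 0.031, 0.039 and 0.066, and Vtn and Thbs2 were under it in CML, at 0.12 and 0.21. CML 3 was the highest array for 5 of the 9 members, beside 26.8% of all genes, and AML 3 the lowest for 4, beside 23.0%.

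Among the receptors for these proteins, Itga5, the alpha chain of the main fibronectin receptor, rose in AML. It stood at 6.20, 5.97 and 6.11 on AML 1, 2 and 3, against 5.09, 5.39 and 4.97 on CML 1, 2 and 3, so the groups were apart. The change was 0.94 ± 0.16 (limma adjusted p = 0.0477), close to the threshold: with 1 array left out it passed in 1 of 6 fits, and it passed under median centring but not under the other 2 scalings. Its partner Itgb1 was at 0.21 ± 0.31 (limma adjusted p = 0.683), a gene picked after its values were seen.

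Itgav, the alpha chain of vitronectin and periostin receptors, was higher by value, at 0.83 ± 0.20, without passing (limma adjusted p = 0.100). It passed after median centring (limma adjusted p = 0.0431), the only 1 of 3 other scalings, and in 0 of 6 fits with 1 array left out. Cd36, a thrombospondin receptor also picked after its values were seen, had the largest negative change of the receptor list. It stood at 3.38, 3.47 and 3.77 on AML 1, 2 and 3, against 4.34, 6.37 and 6.40 on CML 1, 2 and 3, and did not pass (change -2.16 ± 0.55, limma adjusted p = 0.107). Only its values on CML 2 and CML 3 were above the receptor level. Without CML 1, the dim array of its group, Cd36 passed, at -2.85 (limma adjusted p = 0.0309), and it did not pass with any other array left out. Of 19 receptor genes, 1 rose and 0 fell, with 9 higher and 10 lower by value and a median of -0.02.

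Other matricellular genes gave no call, with 3 of 19 higher and 16 lower in AML by value and a median of -0.27. At an unadjusted p under 0.05 in limma, 2 were higher and 3 lower. Tgfbi, a matrix protein induced by TGF-beta and also made by monocytes, had the lowest p of the list. It stood at 7.68, 8.73 and 7.81 on AML 1, 2 and 3, against 5.75, 5.51 and 6.62 on CML 1, 2 and 3. Like Fn1, it was high on every AML array, by 2.11 ± 0.39, and just missed the threshold (limma adjusted p = 0.0527). It passed after median centring (limma adjusted p = 0.0298) and in the brighter 50% of genes (limma adjusted p = 0.0317). Median centring was the only 1 of 3 other scalings under which Tgfbi passed, and it passed in 0 of 6 fits with 1 array left out. Ecm1 was lower in AML by value, at -1.75 ± 0.60, without passing (limma adjusted p = 0.179), and its groups overlapped.

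**Figure D4:**
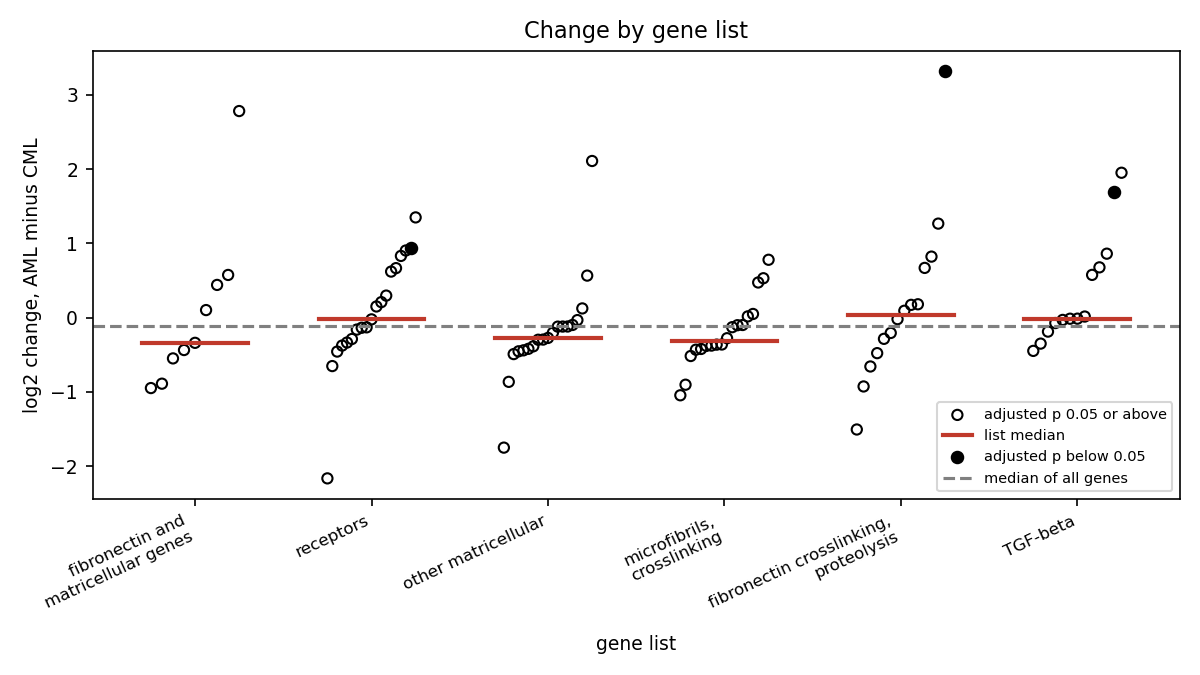
Log2 change, AML minus CML (y axis), of each measured gene of 6 lists (x axis), with filled points for genes at a limma adjusted p under 0.05. Red bars are list medians, and the dashed line is the median of all genes, at -0.11. Filled points are Itga5, F13a1 and Smad2, and the open point at 2.78 is Fn1.

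Genes of elastic microfibrils and crosslinking enzymes also gave no call, with 5 of 18 higher and 13 lower by value and a median of -0.32. At an unadjusted p under 0.05 in limma, 0 were higher and 2 lower. Mfap2, a microfibril glycoprotein, stood at 4.97, 5.21 and 4.52 on AML 1, 2 and 3, against 6.07, 5.52 and 6.24 on CML 1, 2 and 3. Its groups were apart, at -1.05 ± 0.26 (limma adjusted p = 0.102). Fbn2, which encodes fibrillin-2, was at -0.42 ± 0.16 (limma adjusted p = 0.200) and under the receptor level on all 6 arrays.

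In the list of fibronectin crosslinking and pericellular proteolysis, F13a1 rose. It encodes the A subunit of coagulation factor XIII, a transglutaminase of monocytes and platelets that crosslinks fibrin and fibronectin. F13a1 stood at 7.92, 9.50 and 7.54 on AML 1, 2 and 3, against 4.51, 5.0 and 5.50 on CML 1, 2 and 3, a change of 3.32 ± 0.53 (limma adjusted p = 0.0412). With 1 array left out it passed in 1 of 6 fits, and it passed under 1 of 3 other scalings. Mmp2, a gelatinase of stromal cells, had the next lowest p of the list, at -1.51 ± 0.66 without passing (limma adjusted p = 0.242). Of 14 genes, 1 rose and 0 fell, and the median was 0.04.

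Of 13 genes of TGF-beta ligands, receptors and SMADs, Smad2, a transducer of the TGF-beta receptor, rose and 0 fell. It stood at 7.44, 7.01 and 7.12 on AML 1, 2 and 3, against 5.52, 5.35 and 5.63 on CML 1, 2 and 3. The change was 1.69 ± 0.17 (limma adjusted p = 0.0199), and it passed under 2 of 3 other scalings and in 3 of 6 fits with 1 array left out. Nrros, which holds latent TGF-beta on myeloid cells, was 1.95 ± 0.41 higher by value (limma adjusted p = 0.0701). It passed after median centring, in the brighter 50% of genes and without CML 1 (limma adjusted p = 0.0473, 0.0414 and 0.0400). Thus Nrros passed under 1 of 3 other scalings and in 1 of 6 fits with 1 array left out. The list's median was -0.01.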

How the data were processed

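Per the labels' protocols, RNA from sorted bone marrow cells was hybridised to Affymetrix arrays, 1 for each sample. The authors' deposited intensity values lie between 2.71 and 8583, so their scale was taken as linear. Limma and lumi are listed in the submitters' processing notes, without versions, and the background correction, summarisation and normalization are not given in the sources used here. Array medians differ, and no detection p-value was used.

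Of 39721 probe sets, 23521 had 1 gene symbol, 1814 several and 14386 none in the platform annotation. Genes with several probe sets were represented by the brightest. Symbols were checked against RefSeq (GRCm38.p6), which held 23328 of the 23521. Log2 intensities of 22180 genes were fitted with lmFit and eBayes in limma 3.58.1 (R 4.3.3), two-sided, with no covariate or filter. The number of arrays limits the precision.

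The members and lists were chosen with earlier results of these data known. Besides all members, every gene past the threshold in a pathway list was named, and up to 2 by lowest p otherwise. Cell type marker lists were summarised by counts and sums. Lists of perivascular stroma and endothelium gave 0 limma calls of 12 each (0 and 2 at an unadjusted p under 0.05). Their median changes were -0.30 and -0.28. Pan-haematopoietic genes gave 2 limma calls of 12 (10 at an unadjusted p under 0.05), all 12 had higher means in AML, and the list's median was 1.80. The 2 calls became 0 after quantile normalization or cyclic loess. Plasma cell and B lineage genes gave 0 limma calls of 11 (1 at an unadjusted p under 0.05), with 10 lower in AML by value and a median of -0.32. In a simulation of the AML against CML fit with 22180 genes, limma called 28% of genes changed by 1 log2 unit and 82% of those changed by 2. Noise was drawn independently for each gene, so differences shared by many genes of an array were not simulated. The rates are for genes drawn from all, with median SDs of 0.19 in AML and 0.26 in CML. Members had median SDs of 0.61 and 0.67, so the rates do not apply to them. Figures were drawn with matplotlib 3.10.9.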

Additional observations from a re-analysis of the deposited data

How the results depend on the processing

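Under 14 alternatives (6 that left out 1 array and 8 other settings), 116 of 124 member values kept their direction and their side of the threshold, Fn1 passed in 2, and 6 turned in sign. Those 6 were Postn without CML 3 (0.04), Thbs1 without AML 3 (-0.35) and Tnc without AML 2 (-0.28), without CML 2 (-0.28), after quantile normalization (-0.17) and after cyclic loess (-0.23). The cause was not tested. Part of the agreement of the 116 was fixed in advance. Fits of the brighter 50% of genes, with a replicate block or with other eBayes options leave each log2 change as it was. No member passed as fitted, so none could lose a call. With 1 array left out, Postn ran from -1.05 to 0.041, Thbs1 from -0.35 to 0.87 and Tnc from -0.28 to 0.43. Thus 1 member passed in limma after median centring and 1 when only the brighter 50% of genes were fitted (Fn1 in both), against 0 as fitted, and 0 passed with any array left out. The members' median change went from -0.34 to 0.10 in the brighter 50%, where dim members drop out, and to 0.04 without CML 3. Over all genes, 423 passed in limma as fitted, 93 after quantile normalization, 896 after median centring, 64 after cyclic loess and 232 with log2(intensity + 16). With 1 array left out the count ran from 0 to 438, and it was 0 without AML 1, AML 2 or CML 3 (3048, 3750 and 3533 genes passed unadjusted at 0.05). It was 279 without AML 3. Median centring moved the median change of all genes from -0.11 to 0.04. The replicate block gave 0 genes in limma (3711 at an unadjusted p under 0.05) and 0 members, with Fn1 at an adjusted p of 0.158. The numbers were not treated as pairs in the main fit. Same-numbered arrays correlated in their deviations from group means at 0.24, -0.30 and -0.25, and AML 2 and AML 3 correlated best with other numbers. Deviations within groups of 3 arrays cannot show whether arrays were paired. Dim probe sets limit what can be said of Vtn, Thbs2 and Lox.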
